A study of Mus musculus with 14 samples.

Results

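Mast cell genes were followed across the ventricular border zone of the mouse heart after myocardial infarction (MI). They are the proteases Mcpt4, Cma1, Cpa3 and Tpsb2, the growth factor receptor Kit, and the IgE receptor chains Fcer1a and Ms4a2. The members were given as a list of 7 gene symbols, and each has a probe on the array: 7 of 20614 named genes, with 8 probes. The scanner files carry no gene names, so probes were matched to the symbols through their RefSeq transcript accessions. Male C57BL/6 mice, aged 8 weeks per the labels, had the left anterior descending artery of the heart tied off or the same operation without ligation (sham). RNA of the ventricular border zone was hybridised to 1-colour Agilent SurePrint G3 arrays, 1 sample per array. There were 4 sham hearts, 5 infarcted hearts taken at 3 days (MI 3 days) and 5 taken at 14 days (MI 14 days). No group carries a transgene or a drug. The time at which the sham hearts were taken is not given in the sources used here, and the design text speaks of more sham mice than the 4 arrays analysed. Nothing in the labels says whether the samples of a group came from separate mice, so p-values measure the spread between these samples.

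Mast cells are tissue-resident immune cells that mature from bone marrow progenitors under the growth factor that binds Kit. They store chymases, tryptases, carboxypeptidase A3, histamine and heparin in granules, and release them when antigen crosslinks IgE on the receptor built from Fcer1a, Ms4a2 and Fcer1g. In the heart they lie along vessels and beneath the epicardium, and their chymase can form angiotensin II. Mast cells of the connective tissue type are known for Mcpt4, Cma1, Cpa3 and Tpsb2, while Kit is also made by progenitor cells and some vascular and stromal cells.

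The promoters of the 3 proteases that fell together are shown with that of Kit, the member that rose, because the mast cell factor GATA2 binds GATA motifs and the TATA box marks many tightly regulated promoters. Each runs from 250 bases before to 50 bases after the transcript start, 5′ to 3′ on the gene's strand, from RefSeq on GRCm38.p6. Capitals mark every GATAA or TATAAA on either strand (read as TTATC or TTTATA on the other). Mcpt4 lies at chr14:56062261-56062560 (minus strand), Cma1 at chr14:55944626-55944925 (minus), Cpa3 at chr3:20242132-20242431 (minus) and Kit at chr5:75574737-75575036 (plus).
Mcpt4: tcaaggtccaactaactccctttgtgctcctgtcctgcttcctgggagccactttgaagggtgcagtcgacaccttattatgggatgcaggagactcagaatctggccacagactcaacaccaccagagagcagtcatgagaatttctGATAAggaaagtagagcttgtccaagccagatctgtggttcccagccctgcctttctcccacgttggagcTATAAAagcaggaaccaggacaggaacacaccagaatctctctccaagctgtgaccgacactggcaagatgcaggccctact
Cma1: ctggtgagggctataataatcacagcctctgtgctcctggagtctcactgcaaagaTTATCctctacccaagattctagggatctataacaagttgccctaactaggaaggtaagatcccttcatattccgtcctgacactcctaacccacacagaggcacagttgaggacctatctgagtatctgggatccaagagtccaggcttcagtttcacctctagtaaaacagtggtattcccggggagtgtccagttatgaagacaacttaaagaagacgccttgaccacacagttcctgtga
Cpa3: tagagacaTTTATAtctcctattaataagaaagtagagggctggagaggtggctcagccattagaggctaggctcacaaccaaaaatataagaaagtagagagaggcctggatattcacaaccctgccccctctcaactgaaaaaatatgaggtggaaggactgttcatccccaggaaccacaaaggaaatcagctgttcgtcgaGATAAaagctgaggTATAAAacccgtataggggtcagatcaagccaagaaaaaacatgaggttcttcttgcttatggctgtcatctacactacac
Kit: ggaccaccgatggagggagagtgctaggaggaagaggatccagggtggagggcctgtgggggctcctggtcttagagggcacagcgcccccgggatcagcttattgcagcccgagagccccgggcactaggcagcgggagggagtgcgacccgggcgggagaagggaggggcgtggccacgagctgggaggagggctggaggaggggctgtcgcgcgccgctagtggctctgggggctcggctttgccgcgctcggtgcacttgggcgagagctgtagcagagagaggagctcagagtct
GATAA occurred 1 time each in the windows of Mcpt4, Cma1, Cpa3 and Fcer1a, 3 times in that of Ms4a2 and 0 times in that of Kit. TATAAA occurred 1 time in Mcpt4, 2 times in Cpa3, 1 time in Fcer1a and 0 times in Cma1, Ms4a2 and Kit. Of 32817 promoters of this length, 25.4% held GATAA and 13.6% held TATAAA. GC content was 51.7% for Mcpt4, 47% for Cma1, 43.3% for Cpa3 and 69% for Kit, against a median of 52.7% over all promoters. A match is only a match of letters. Tpsb2 had no promoter entry.

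Levels are log2 of the deposited intensity minus the 75th percentile of each array, so 0 stands for that percentile. The 75th percentiles ran from 188.6 to 443 intensity units. Of the 14 arrays, 10 have scanner files with a flag for signal well above background (4 sham, 2 MI 3 days, 4 MI 14 days). Replicate arrays correlated at r from 0.979 to 0.992, and no member spot was saturated. The test took 32257 probes that passed this flag throughout the scanner arrays of some group, with limma over all 3 groups and Benjamini-Hochberg adjustment over all of them. A call is an adjusted p under 0.05. The sham arrays serve both comparisons with sham. In whole tissue, fewer cells of a type and less RNA per cell cannot be told apart.

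Against their label as markers of mast cells, the members were partly detected. Mcpt4, Kit and the brighter Tpsb2 probe were well above background on all 10 scanner arrays. Cma1, Cpa3 and the dimmer Tpsb2 probe were so on all 4 sham and all 4 MI 14 days scanner arrays, and on 0, 1 and 1 of the 2 at MI 3 days. These probes entered the test only through the sham and MI 14 days arrays, so the filter itself favours a lower level at 3 days for them. Fcer1a was above background on 1 of 4 sham arrays and on none of the others, and Ms4a2 on none of 10. The genes of both IgE-specific receptor chains were therefore not tested.

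**Figure D1:**
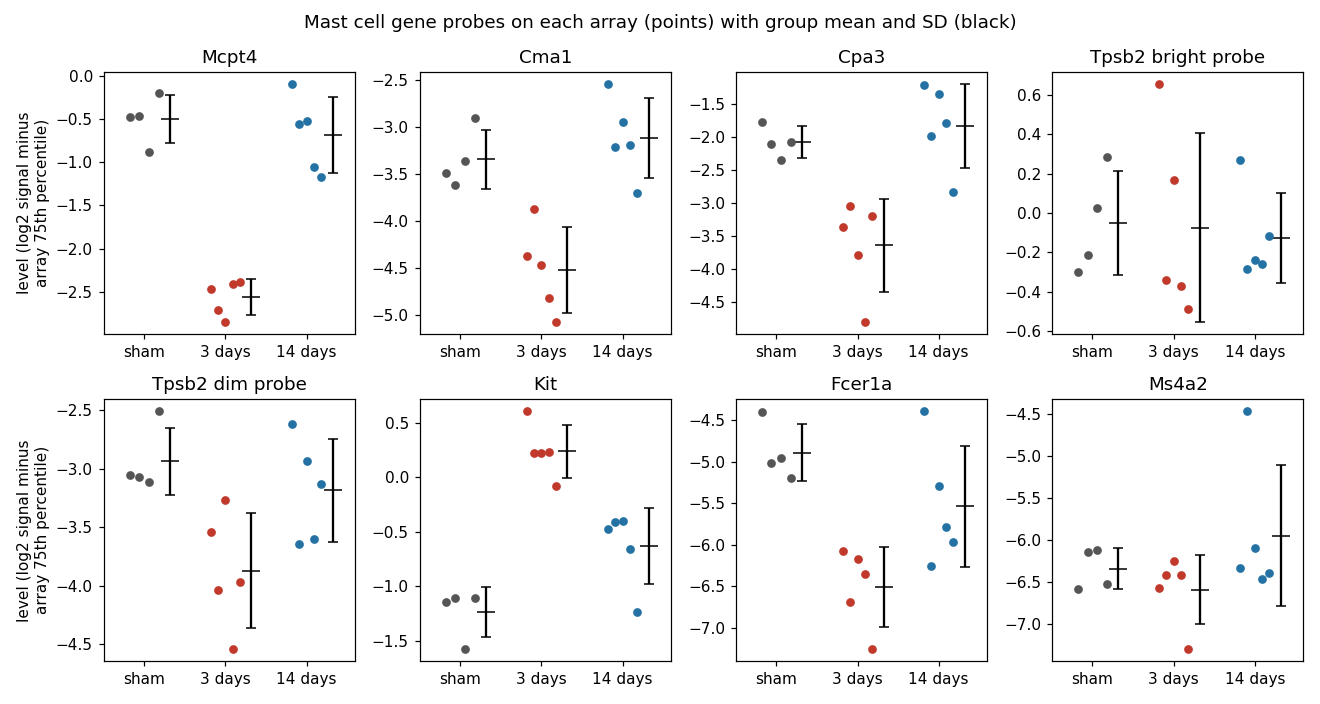
Level of each mast cell gene probe on every array (y axis, log2 of the scaled intensity) by group (x axis), with points for arrays and black marks for group mean and SD. Mcpt4, Cma1 and Cpa3 lie lower at 3 days than in every sham and 14 day array, and Kit lies higher.

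At 3 days after infarction, under the main scaling, the granule proteases Mcpt4, Cma1 and Cpa3 were lower than in sham hearts by 4.18-fold, at least 2.07-fold and 2.95-fold. Kit was 2.77-fold higher. These sizes varied with the processing. Over the alternatives the log2 change ran from -2.19 to -1.19 for Mcpt4 and from -2.17 to -0.39 for Cma1. It ran from -2.45 to -0.70 for Cpa3 and from 0.90 to 1.88 for Kit. At 14 days no difference of the proteases from sham was called, and Kit was 1.52-fold above sham. Among the members, counted by their brightest probe, 3 fell and 1 rose of the 5 tested at 3 days. Of the 3, Cma1 and Cpa3 were tested only through their signal in sham and at MI 14 days. With signal required on every scanner array, 1 member was called lower. In that comparison 65.2% of all tested probes were called, 39.7% lower and 25.5% higher. The median change was -1.18 over the 5 member probes and -0.19 over all tested probes.

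Mcpt4 encodes the chymase mMCP-4 of connective tissue mast cells. Its levels in the sham arrays were -0.47, -0.46, -0.88 and -0.19. At MI 3 days they were -2.46, -2.71, -2.85, -2.41 and -2.38, and at MI 14 days -0.09, -0.55, -0.53, -1.06 and -1.17. Every MI 3 days array lay below every other array, while sham and MI 14 days overlapped. The means were -0.50 ± 0.28 (SD, n = 4), -2.56 ± 0.21 (SD, n = 5) and -0.68 ± 0.44 (SD, n = 5). The fitted log2 change at 3 days was -2.06 ± 0.21 (SE, limma adjusted p = 1.03e-06), and from 3 to 14 days the level rose by 1.88 ± 0.19 (adjusted p = 3.06e-06), 3.69-fold. At 14 days the difference from sham was -0.18, with a 95% interval from -0.62 to 0.26 (limma adjusted p = 0.541).

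Cma1 encodes mast cell chymase (mMCP-5), a neighbour of Mcpt4 on chromosome 14. The sham levels were -3.49, -3.62, -3.36 and -2.90. They stood at -4.37, -3.87, -4.47, -4.82 and -5.07 at MI 3 days, and at -2.54, -3.21, -2.95, -3.20 and -3.70 at MI 14 days. The MI 3 days arrays were the 5 lowest, and the other groups overlapped. Because the probe was not well above background on either MI 3 days scanner array, the fall is given as a bound. Under the main scaling Cma1 was at least 2.07-fold lower than sham and at least 2.41-fold below MI 14 days. The bound covers the background flag only, not the spread between arrays or the choice of processing. Where an MI 3 days array has a background flag (2 arrays), the bound takes the higher of the probe's own signal and the lowest signal well above background, and for the other 3, whose flag is unknown, the probe's own signal. The probe's own means differ by 2.26-fold and 2.64-fold. The fitted changes were -1.18 ± 0.25 (SE, limma adjusted p = 0.00101) at 3 days and 1.40 ± 0.24 (adjusted p = 0.000229) from 3 to 14 days. Without scaling between arrays the change at 3 days was -0.77 (limma adjusted p = 0.0688). With normexp background correction on the scanner arrays it was -0.39 (limma adjusted p = 0.0410). The difference from sham at 14 days was 0.22, with an interval from -0.32 to 0.77 (limma adjusted p = 0.540).

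Cpa3, the carboxypeptidase of mast cell granules, measured -1.77, -2.11, -2.35 and -2.08 in sham. Its MI 3 days levels were -3.37, -3.05, -3.78, -4.80 and -3.20, and its MI 14 days levels -1.22, -1.98, -1.36, -1.79 and -2.83. Again the MI 3 days arrays lay below all others, although the highest of them (-3.05) came close to the lowest MI 14 days array (-2.83). The change at 3 days was -1.56 ± 0.36 (SE, limma adjusted p = 0.00163), and the rise from 3 to 14 days 1.80 ± 0.34 (adjusted p = 0.000477), 3.49-fold. The lowest array, MI 3 days replicate 4 (-4.80), was not well above background. Without it the change at 3 days was -1.27 (limma adjusted p = 0.00218). At 14 days Cpa3 differed from sham by 0.24, with an interval from -0.53 to 1.01 (limma adjusted p = 0.645), the widest among the tested member probes.

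Tpsb2 encodes the tryptase mMCP-6, and its probes gave different results. The brighter probe read -0.30, -0.21, 0.03 and 0.29 in sham, 0.66, -0.34, 0.17, -0.37 and -0.49 at MI 3 days, and 0.27, -0.29, -0.24, -0.26 and -0.12 at MI 14 days. All 3 groups overlapped. Its change was -0.02 at 3 days, with an interval from -0.49 to 0.45 (limma adjusted p = 0.930), and -0.08 at 14 days, from -0.55 to 0.39 (adjusted p = 0.821), and its sign turned under several settings. From 3 to 14 days it was -0.05 (limma adjusted p = 0.843).

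The dimmer Tpsb2 probe read -3.05, -3.07, -3.11 and -2.51 in sham and -3.54, -4.03, -3.27, -4.54 and -3.97 at MI 3 days. At MI 14 days it read -2.62, -3.64, -2.94, -3.60 and -3.13, overlapping both other groups, while the MI 3 days and sham arrays did not overlap. It was 1.91-fold lower at 3 days (-0.93 ± 0.26, SE, limma adjusted p = 0.00630), a call lost without scaling (adjusted p = 0.236). The rise from 3 to 14 days, 0.68 ± 0.25 (SE, limma adjusted p = 0.0299), was lost under quantile normalization (0.116), without scaling (0.676), with the slide as a block (0.0528) and with every probe tested (0.0571). It was also lost on leaving out MI 3 days replicate 2, 4 or 5 or MI 14 days replicate 1, 3 or 5, with adjusted p from 0.0549 to 0.0792. Within each array, the dimmer minus the brighter probe changed by -0.91 at 3 days (exact two-sided permutation test, p = 0.0159, adjusted over 8 such tests p = 0.127), 0.0159 being the smallest p this design allows. The neighbouring tryptase gene Tpsab1, a transcribed pseudogene in this RefSeq assembly, has no named probe, so whether it adds to either signal is unknown.

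Kit encodes the receptor tyrosine kinase that mast cells need for survival. It read -1.14, -1.11, -1.58 and -1.10 in sham, and 0.61, 0.22, 0.22, 0.23 and -0.08 at MI 3 days. At MI 14 days it read -0.47, -0.41, -0.40, -0.65 and -1.23. The MI 3 days arrays lay above all others, and 1 MI 14 days array lay within the sham range. The rise at 3 days was 1.47 ± 0.18 (SE, limma adjusted p = 7.15e-06), opposite to the proteases. From 3 to 14 days Kit fell by 0.87 ± 0.17 (SE, limma adjusted p = 0.000642), 1.83-fold, a call lost when slide was fitted as a block (adjusted p = 0.0531).

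At 14 days Kit was the 1 member called of 5 tested, at 0.60 ± 0.18 above sham (SE, interval from 0.21 to 0.99, limma adjusted p = 0.0206). The background was 32.5% of all tested probes called, 12.8% higher and 19.8% lower. That call was lost without scaling (limma adjusted p = 0.389), on the scanner arrays alone (0.0639), with the slide as a block (0.107) and without sham replicate 3 (0.0701). Between the infarct times 3 members rose and 1 fell of 5 tested, where 55.6% of all probes were called, 32.7% higher and 22.9% lower. Of those 3, Cma1 and Cpa3 were tested only through their signal in sham and at MI 14 days. The median change of all tested probes was -0.09 at 14 days and 0.13 between the times.

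**Figure D2:**
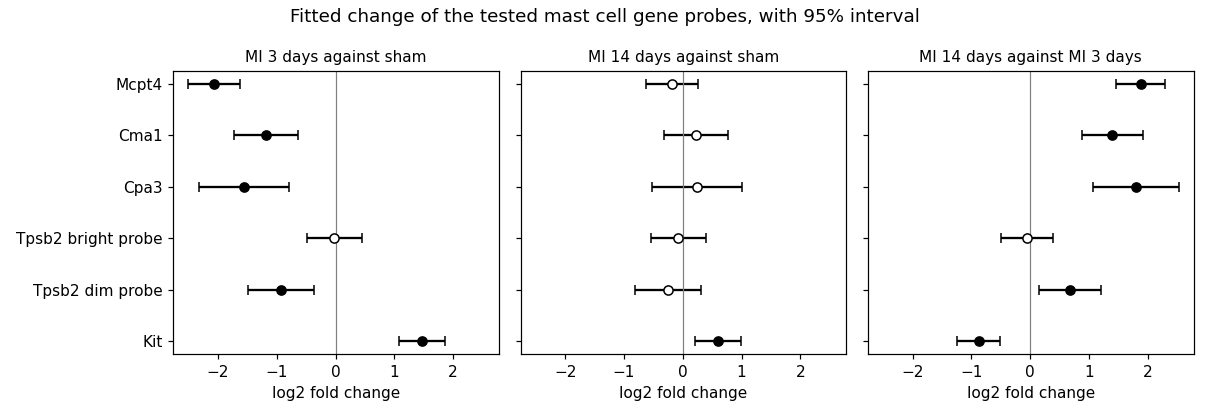
Fitted log2 fold change (x axis) of the 6 tested mast cell gene probes (y axis) in each comparison; bars are 95% intervals and filled points passed an adjusted p of 0.05. Mcpt4, Cma1 and Cpa3 fell at 3 days and rose by 1.40 to 1.88 towards 14 days, Kit did the opposite, and the brighter Tpsb2 probe stayed near 0.

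Fcer1a, the IgE-binding chain of the receptor, read -4.40, -5.01, -4.95 and -5.20 in sham. It read -6.07, -6.68, -6.17, -6.35 and -7.26 at MI 3 days, and -4.39, -6.25, -5.29, -5.78 and -5.97 at MI 14 days. The MI 3 days arrays lay below all sham arrays, but with 1 sham array above background no fold is given. Ms4a2, the beta chain that amplifies the receptor's signal, ranged from -6.58 to -6.12 in sham, -7.30 to -6.25 at MI 3 days and -6.46 to -4.46 at MI 14 days. Its groups overlapped in every pairing.

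Of the 6 tested member probes, the MI 3 days and sham arrays did not overlap for 5 (56.8% of all tested probes at that comparison). The MI 14 days and sham arrays did not overlap for 0 (27.4%), and the MI 14 days and MI 3 days arrays for 4 (40.0%). Cma1, Cpa3 and the dimmer Tpsb2 probe passed the filter only through the sham and MI 14 days arrays. For them the filter itself favours MI 3 days arrays that lie lower. The directions of Mcpt4, Cma1, Cpa3 and Kit at 3 days held within single slides, although these pairs hold 1 array a group. Mcpt4 differed by -1.53 on slide 2 and -2.19 on slide 3, Cma1 by -1.46 and -2.17, Cpa3 by -2.45 and -1.12, and Kit by 1.81 and 1.02. From 3 to 14 days, slide 3 gave 1.46 for Mcpt4, 1.79 for Cma1, 1.21 for Cpa3 and -0.68 for Kit. The differences from sham at 14 days had opposite signs on slides 1 and 3 for Mcpt4 (0.38 and -0.72) and for Cma1 (1.01 and -0.38). Cpa3 gave 0.72 and 0.08 there, and Kit 0.66 and 0.34. The slide of the other 4 arrays is unknown.

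Within each array, Mcpt4 minus Cpa3 changed by -0.50 at 3 days (exact two-sided permutation test, p = 0.270, adjusted over 8 such tests p = 0.423). Mcpt4 minus Cma1 changed by -0.89 at 3 days (exact two-sided permutation test, p = 0.0317, adjusted p = 0.127). Cma1 minus Cpa3 changed by 0.38. The level of Cma1 at MI 3 days is a bound, so the sizes of the changes that involve it at 3 days are uncertain. At 14 days Mcpt4 minus Cma1 changed by -0.40 (exact two-sided permutation test, p = 0.0476, adjusted p = 0.127). Mcpt4 minus Cpa3 changed by -0.42 and Cma1 minus Cpa3 by -0.02 at 14 days. None of the 8 tests passed an adjusted p of 0.05.

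Across all 14 arrays Mcpt4 correlated with Cma1 at r = 0.86 and with Cpa3 at r = 0.86, Cma1 with Cpa3 at r = 0.88, and Mcpt4 with Kit at r = -0.76. These arrays share the group differences, so the deviations from group means are given beside them. On that scale, pooled over the groups, the values were 0.37, 0.42, 0.57 and 0.61, so that the correlation of Mcpt4 with Kit turned positive. Kit and Mcpt4 were both low on sham replicate 3 (-0.34 and -0.38) and on MI 14 days replicate 5 (-0.60 and -0.49). On MI 3 days replicate 5 they parted (-0.32 and 0.18), so the pooled value does not speak for each group. MI 14 days replicate 5 was the lowest of its group for Mcpt4, Cma1, Cpa3 and Kit together. The Tpsb2 probes correlated at 0.49 over all arrays and at 0.72 in deviations.

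**Figure D3:**
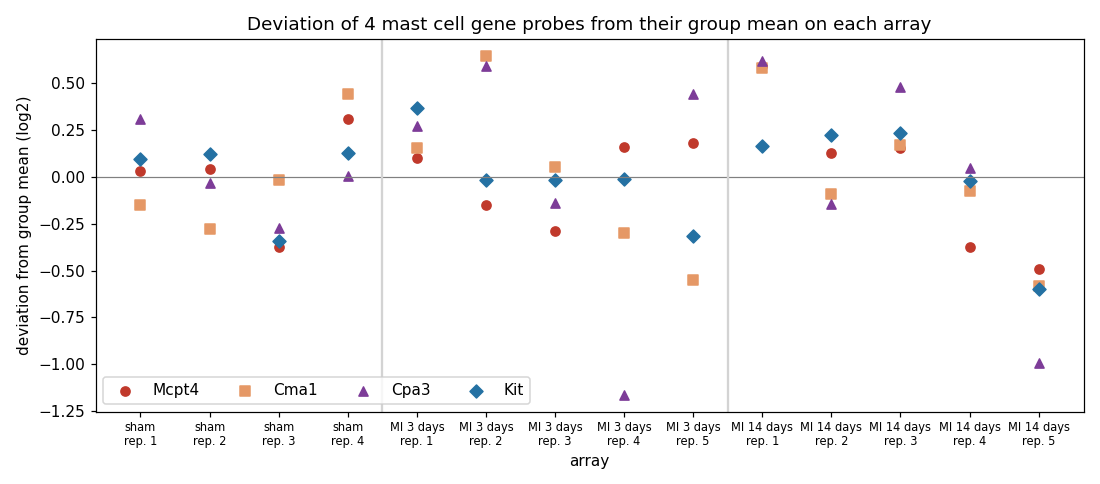
Deviation of Mcpt4, Cma1, Cpa3 and Kit from their group mean (log2, y axis) on each of the 14 arrays (x axis), each symbol being 1 gene. On MI 14 days replicate 5 all 4 genes lie below their group mean, and on MI 3 days replicate 4 Cpa3 lies lowest.

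Other genes followed the same time course at least as closely. By Pearson r over the 14 arrays, Mcpt4 was most like Tie1 (0.98), an endothelial receptor, Setbp1 (0.98), Ano1 (0.97), Abca6 (0.97) and Gm12216 (0.97). Of 14866 other named genes, 1234 were more like Mcpt4 than Cma1 was. For Cma1 the closest were Casp14 (0.92), Pla2g2d (0.92), Adam26b (0.92), Slc44a5 (0.90) and Thbd (0.90), with 10 genes closer than Cpa3. Cpa3 was closest to Susd5 (0.94), Gdf10 (0.94), Ids (0.93), Aass (0.93) and Cir1 (0.92), with 30 genes closer than Cma1. The brighter Tpsb2 probe was closest to Ctxn2 (0.84) and H2-Eb2 (0.81). In deviations from group means the top genes were Plcd3 for Mcpt4 (0.82), Pla2g2d for Cma1 (0.79), Amigo2 for Cpa3 (0.94) and Ctxn2 for Tpsb2 (0.89). No member was among the 5 genes closest to another member.

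Around the chymase genes on chromosome 14 the RefSeq order is Cma1, Mcpt-ps1, Cma2, Gm5801, Mcpt1, Mcpt2, Mcpt9, Mcpt4, Mcpt8 and Ctsg. Cma2, a chymase gene beside Cma1, fell by 0.67 ± 0.10 at 3 days (SE, limma adjusted p = 5.72e-05), a change that without scaling was -0.26 (adjusted p = 0.511). The mucosal mast cell protease Mcpt1, the basophil protease Mcpt8 and Mcpt9 were above background on none of the 10 scanner arrays, and Mcpt2 on 1. The pseudogene Mcpt-ps1 was above background on 3 sham arrays, 0 at MI 3 days and 1 at MI 14 days. Ctsg, the chymase-like cathepsin G of myeloid cells, had -0.60 at 3 days (limma adjusted p = 0.106). Outside the cluster, next to Cma1, Sdr39u1 fell by 1.90 at 3 days (limma adjusted p = 3.43e-06). It was chosen after its value was seen.

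Taken as a list of mast cell proteases, 4 of 6 tested genes fell at 3 days and 0 rose (median -0.92, all probes -0.19), the 4 being 3 members and Cma2. Cma1 and Cpa3 were tested only through sham and MI 14 days, and Ctsg through sham alone. For these genes the filter itself favours a lower level at 3 days. Without scaling 2 fell. At 14 days 0 of 6 were called, by limma, and 4 rose between the times. The further lists below hold genes that mast cells use, many of them made by other leukocytes too. The counts of this list, of those and of the marker lists stand beside these shares of all tested probes. At 3 days 39.7% were called lower and 25.5% higher, at 14 days 19.8% and 12.8%, and between the times 22.9% and 32.7%.

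Among receptors of mast cells, 5 of 8 tested rose at 3 days and 3 fell (median 1.51), the 3 being the histamine receptor Hrh4 (-1.18), Mrgprb1 (-0.84) and the interleukin-33 receptor Il1rl1 (-0.55). Without scaling the falls of Mrgprb1 and Il1rl1 were lost (limma adjusted p = 0.366 and 0.767). Mrgprb1 was tested only through its signal in sham, so the filter itself favours its fall. Csf2rb, the shared chain of the interleukin-3 receptor, rose by 3.36, and Fcer1g, the signalling chain of the IgE receptor that other myeloid cells share, by 2.72. The interleukin-3 chain Il3ra rose by 1.78 and the adenosine receptor Adora3 by 1.54. Thus the shared chain Fcer1g rose while the IgE-specific chains Fcer1a and Ms4a2 were at background. At 14 days 3 rose, Kit, Csf2rb (1.20) and Fcer1g (0.78), and Hrh4 fell (-0.42). The Fcer1g and Hrh4 calls at 14 days were lost without scaling (limma adjusted p = 0.158 and 0.414).

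For granule content and mediator synthesis, 7 of 11 rose and 2 fell at 3 days (median 1.29, or 0.67 with slide as a block). The 2 that fell were Alox5 (-1.11) and Slc18a2 (-0.38). The call of Slc18a2 was lost without scaling (limma adjusted p = 0.951) and with slide as a block (0.0553). The 4 with the largest changes were Alox5ap, which presents arachidonate to 5-lipoxygenase (2.51), Hpgds, a prostaglandin D synthase (1.96), Hdc, the histamine-forming enzyme (1.59), and Rab27b, a secretion GTPase (1.40). From 3 to 14 days 7 fell, among them Alox5ap (-2.16) and Hdc (-1.45). With slide as a block 3 were called lower, and the change of Hdc was -0.53 (limma adjusted p = 0.0543). At 14 days the lipoxygenase Alox5 was 1.43 below sham on the log2 scale, and Rab27b (1.21) and Cd63 (0.53, limma adjusted p = 0.412 without scaling) were above it.

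Transcription factors of mast cells fell in 4 of 5 tested at 3 days and in 3 of 5 at 14 days. Of all tested probes 39.7% and 19.8% were called lower, and 5 genes are few to set against those shares. Mitf, which cardiomyocytes also make, fell by 2.11 at 3 days, Stat5b by 1.08, Stat5a by 0.77 and Gata2 by 0.53, and Mitf was the 1 of these 4 still called without scaling. At 14 days, too, 1 of 5 was called lower without scaling, the calls of Stat5a and Stat5b being lost (limma adjusted p = 0.140 and 0.156). Signalling genes below the IgE receptor and Kit rose in 9 of 13 at 3 days and 8 of 13 at 14 days, and fell in 0, by limma. Of all tested probes 25.5% and 12.8% were called higher. At 3 days the adaptor Lat2 rose by 3.50, the kinase Btk by 2.68 and the adaptor Lcp2 by 2.43. Lcp2 was tested only through its signal at MI 3 days, so the filter itself favours a rise then. With slide as a block the call of Lcp2 was lost (limma adjusted p = 0.0542). Without scaling, 7 of the 8 at 14 days were lost.

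Kitl, the ligand of Kit, had a change of 0.24 at 3 days (limma adjusted p = 0.187) and 0.36 at 14 days (adjusted p = 0.0871). Among growth and attraction factors 3 of 6 rose and 1 fell at 3 days. Il33, which activates mast cells, rose by 2.17, Tgfb1 by 1.04 and Tslp by 0.47, and Cxcl12 fell by 0.33, a change that turned to 0.08 without scaling. At 14 days Il33 was still 1.56 above sham. Of 2 tested receptors of mast cell mediators, the leukotriene receptor Cysltr1 rose by 1.16 and the histamine receptor Hrh1 fell by 0.89 at 3 days (limma adjusted p = 0.177 without scaling).

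**Figure D4:**
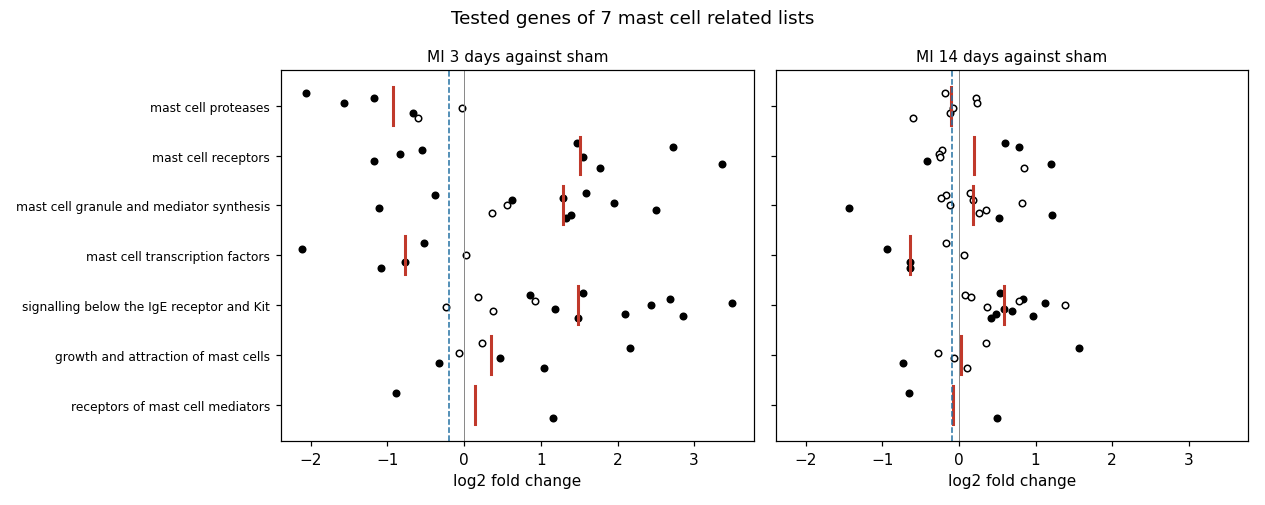
Log2 fold change against sham (x axis) of each tested gene in 7 lists of mast cell related genes (y axis) at 3 days (left) and 14 days (right); filled points passed an adjusted p of 0.05, red bars are list medians and the dashed line is the median of all tested probes. At 3 days the proteases lie below the dashed line except Tpsb2, while most signalling genes lie above it.

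Markers of other cells moved along with the members. For each list the scaled intensities (1 being an array's 75th percentile) were summed on each array. The summed cardiomyocyte markers ran from 4608 to 5917 in sham, 2798 to 3417 at MI 3 days and 4678 to 6504 at MI 14 days, and 8 of 8 fell at 3 days. Mesothelial markers ran from 6.96 to 9.44, 1.997 to 5.22 and 5.24 to 16.2 (3 of 6 fell), and fat markers from 193 to 211, 120 to 153 and 133 to 239 (2 of 4 tested fell). At 14 days 4 of 8 cardiomyocyte markers were still called lower than sham by limma, and the median fat marker sum was 137 against 132 at MI 3 days and 198 in sham. In sham Fabp4 (mean level 7.63, log2) made up nearly all of the fat sum, the next marker being Cfd (-0.13). From 3 to 14 days 3 of 4 tested fat markers rose by limma (median change 2.54), while Fabp4 changed by 0.16 (adjusted p = 0.220). Those 3, Adipoq, Plin1 and Cfd, were not tested through MI 3 days, so the filter itself favours a lower level then. The part of these tissues in the fall of the proteases was not tested.

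Leukocyte markers moved as Kit did. Macrophage marker sums were 41.4 to 53.6 in sham, 89.5 to 156 at MI 3 days and 51.8 to 72.9 at MI 14 days (7 of 7 tested rose at 3 days). Dendritic cell marker sums were 0.746 to 1.10, 4.32 to 6.56 and 1.31 to 2.11 (4 of 5 rose). Among these, Cd209a was tested only through its signal in the infarcted groups. Basophil marker sums were 5.94 to 6.76, 8.64 to 16.4 and 5.13 to 7.25 (1 of 5 rose, 1 fell), with the defining markers Mcpt8, Cd200r3 and Il4 not above background on any scanner array. Eosinophil sums were 0.829 to 0.957, 1.36 to 2.57 and 0.718 to 1.12 (3 of 6 rose). Of those 3, Siglecf and Ear1 were tested only through their signal at MI 3 days, so the filter itself favours their rise. Epx and Prg2 had too little signal to be tested. Endothelial sums were 100 to 112, 84.4 to 108 and 100 to 118. The part of these cells in the rise of Kit was not tested.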

How the data were processed

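Each probe has 1 deposited Cy3 intensity an array, linear, background-subtracted by Agilent Feature Extraction 10.7.3.1, per the file headers, and not scaled between arrays. On the 10 arrays with scanner output, 55050 single-spot probes matched it within 1e-05 of the value. The submitters' processing notes name limma, with no role. Here log2 was taken and each array's 75th percentile subtracted. Of 55482 probes, 27144 were named through RefSeq accessions (GRCm38.p6). Tests used lmFit, contrasts.fit and eBayes in limma 3.58.1 (R 4.3.3), two-sided, checked on simulated data. The brightest probe stood for a gene. All members were named. Of each list at most the 4 largest calls per comparison were named, with the falls among receptors and granule genes added. Likeness genes were named by highest Pearson r. Members and lists were chosen with earlier results of these data known. Alternatives covered scaling, filter, offset, background, slide and replicate. The labels name both poly-T purified mRNA and total RNA, so which was labelled is unclear. The number of arrays limits precision.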

Additional observations from a re-analysis of the deposited data

Results flagged for a closer look

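The change at 14 days differed from that at 3 days, tested as MI 14 days against MI 3 days with limma, for Mcpt4 (1.88), Cma1 (1.40), Cpa3 (1.80), the dimmer Tpsb2 probe (0.68) and Kit (-0.87), all log2. Single arrays stood apart from their group in 3 of 24 sets of a member probe and a group, where chance gives about 1 in 20. They were sham replicate 4 for the dimmer Tpsb2 probe (-2.51), sham replicate 3 for Kit (-1.58) and MI 14 days replicate 2 for Ms4a2 (-4.46), a probe with no scanner array well above background.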

How the results depend on the processing

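Mcpt4, Cma1, Cpa3 and Kit kept their direction at 3 days and from 3 to 14 days under every alternative run. Their sizes did not stay the same. The falls at 3 days were smallest with normexp, at -1.19 for Mcpt4, -0.39 for Cma1 and -0.70 for Cpa3 (log2). Counts of probes called fell without scaling to 11790 at 3 days (21040 main), 1478 at 14 days (10489) and 10248 between the times (17945). With slide as a block, on the scanner arrays, they were 5082 at 14 days and 9127 between the times, and normexp background correction, chosen after seeing the data since the planned column was not in the files, gave 10625 between the times. Fewer arrays enter those fits. Scaling by the tested probes' 75th percentile gave 5152 higher and 4555 lower at 14 days, against 4117 and 6372. Without scaling the split was 8488 higher and 3302 lower at 3 days, 915 and 563 at 14 days, and 1037 and 9211 between the times, with the median of all probes at 0.22, -0.17 and -0.35. The cause of these shifts was not tested.

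Requiring signal on every scanner array left 1 member called lower at 3 days and 1 called higher from 3 to 14 days, since Cma1 and Cpa3 were then not tested. The count of members higher at 14 days was 0 without scaling, 0 on the scanner arrays alone and 0 with slide as a block, and ran from 0 to 1 on leaving out single replicates (0 without sham replicate 3). From 3 to 14 days 0 members were called lower with slide as a block. These counts are by limma; Kit is the member concerned, and its values stand beside its results.

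No called change reversed. Among changes that were not called or not tested, Mcpt4 and Cma1 at 14 days turned within 1 slide each (0.38 and -0.38), Fcer1a at 14 days turned to 0.052 with normexp and 0.32 within slide 1, and Ms4a2 at 3 days turned to 0.16 without scaling and 0.0020 with quantile normalization. Tpsb2 at 14 days turned to 0.53 (brighter probe) and 0.44 (dimmer) within slide 1, and the brighter probe from 3 to 14 days to 0.28 within slide 3. The brighter probe at 3 days turned to 0.39 without scaling, 0.026 with the tested probes' percentile and 0.027 with the replicate number as a block, and ran from -0.21 to 0.089 without single replicates. At 14 days it turned to 0.0087 with that percentile and 0.050 with normexp, and ran from -0.18 to 0.036. From 3 to 14 days it turned to 0.34 on the scanner arrays, 0.40 with slide as a block and 0.27 with normexp, and ran from -0.16 to 0.13. The dimmer probe at 14 days turned to 0.070 with normexp. The replicate block gave 20965, 10381 and 17839 called probes and changed no call of a member. Deviations of same-numbered arrays correlated from -0.135 to 0.224, so no pairing by number was seen. Such low correlations cannot exclude a pairing. Low signal limits Fcer1a and Ms4a2.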
